A study of Mus musculus with 15 samples.

Results

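The glucocorticoid activation and response genes are 8 genes, *Hsd11b1*, *Nr3c1*, *Fkbp5*, *Tsc22d3*, *Per1*, *Klf9*, *Sgk1* and *Dusp1*, matched by symbol to a table of cultures with 11677 genes and a table of microdissected regions with 11299 genes. All 8 were present in both tables. The list was drawn up because *Hsd11b1* was higher in 3D than in 2D cultures, so *Hsd11b1* was chosen by the 3D against 2D contrast and the values of the 8 genes in that contrast are described without p-values. How many of them passed the thresholds used for all genes is given beside the share of all genes that did, and nothing is read from it. Transcripts were counted by 3′ end sequencing in 21EM15 cells, a single immortalized epithelial line from mouse lens, and all samples are labelled WT. There were 4 samples of 2D culture dishes, 4 samples of 3D spheroids grown for over a week in wells to which cells do not adhere, and 4 internal and 3 external regions cut from spheroids by laser capture microdissection. The study had set aside a further external sample because it stood apart from the other external ones in a principal component analysis. That sample was not analysed here, so the region p-values rest on samples kept after that choice. All were kept in medium with serum, and neither steroid levels nor receptor activity were measured. A level is a log2 CPM, the log2 of a gene's read count scaled to the depth of its sample, and the reads come from transcript ends. Between 7305053 and 9362587 reads were counted per culture sample and between 4044230 and 11702504 per region sample, so that 3 reads, taken as the floor of detection, were worth 0.312 to 0.409 CPM and 0.248 to 0.802 CPM. Intervals and floors cover counting error only. By the study's methods each culture replicate was a dish or a pool of spheroids of its own, and each region replicate began from a pool of spheroids. Whether internal and external samples were cut from the same pools is not given in the sources used here. Nor is it given whether dishes and pools came from separate passages or days, and p-values measure the spread between these samples. In such bulk samples, fewer expressing cells and less RNA per cell cannot be told apart.

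Glucocorticoids act through a receptor that waits in the cytoplasm in a complex with heat shock proteins and immunophilins, and moves to the nucleus once the hormone binds. How much active hormone a cell sees depends on local enzymes. *Hsd11b1* encodes 11-beta-hydroxysteroid dehydrogenase type 1, which turns inactive 11-keto steroids into active glucocorticoids, using NADPH made in the endoplasmic reticulum by the *H6pd* product, and *Hsd11b2* encodes the enzyme that works in the opposite direction. The liganded receptor binds DNA at paired half-sites, and *Fkbp5*, *Tsc22d3*, *Per1*, *Klf9*, *Sgk1* and *Dusp1* are among the genes it induces in many tissues. In the lens, prolonged glucocorticoid exposure is known for cataract at the posterior pole.

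Promoters of *Hsd11b1*, *Klf9* and *Sgk1* are shown. *Hsd11b1* and *Klf9* were taken because they are the members that were higher without overlap both in 3D and in the internal region. *Sgk1* was taken because, among the members searched (all but *Nr3c1*), it is the one whose listed promoters include a full receptor palindrome. The sequences are from RefSeq on GRCm38.p6, 250 bases before to 50 after a start site, 5′ to 3′ on the strand of the gene, and capitals mark every motif match. Letters were searched on both strands. They were the receptor half-site AGAACA, the receptor palindrome in which that half-site is followed after 3 bases by its reverse complement, the E-box CACGTG, the cAMP response element TGACGTCA, the CCAAT box and the forkhead motif GTAAACA. Hsd11b1 is on chr1:193242311-193242610 (minus strand), Klf9 on chr19:23140976-23141275 (plus strand) and the Sgk1 start shown, 1 of 6 listed for this gene, on chr10:21993640-21993939 (plus strand).
Hsd11b1: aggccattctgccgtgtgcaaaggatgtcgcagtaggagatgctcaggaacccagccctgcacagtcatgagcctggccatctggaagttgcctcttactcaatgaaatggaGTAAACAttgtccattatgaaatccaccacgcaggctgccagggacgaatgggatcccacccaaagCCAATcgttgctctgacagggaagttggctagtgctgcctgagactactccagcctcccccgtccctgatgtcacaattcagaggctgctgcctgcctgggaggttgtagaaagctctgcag
Klf9: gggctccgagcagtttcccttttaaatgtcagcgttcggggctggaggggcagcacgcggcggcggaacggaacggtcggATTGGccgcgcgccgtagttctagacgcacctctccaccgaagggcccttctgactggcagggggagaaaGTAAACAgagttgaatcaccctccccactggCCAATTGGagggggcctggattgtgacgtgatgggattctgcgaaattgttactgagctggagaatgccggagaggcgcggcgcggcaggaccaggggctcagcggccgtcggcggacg
Sgk1: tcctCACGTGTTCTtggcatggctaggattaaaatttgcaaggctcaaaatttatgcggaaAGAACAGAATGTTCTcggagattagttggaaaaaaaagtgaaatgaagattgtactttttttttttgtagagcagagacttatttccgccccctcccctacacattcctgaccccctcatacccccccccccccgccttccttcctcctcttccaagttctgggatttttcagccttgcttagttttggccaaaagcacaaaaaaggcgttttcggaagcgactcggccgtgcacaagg

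The promoter of *Hsd11b1* held a CCAAT box from -72 to -68 and a forkhead match from -138 to -132, counted from the start site, and no half-site. That of *Klf9* held a forkhead match from -100 to -94 and 3 CCAAT boxes, of which a pair overlap between -69 and -62, and no half-site. In the *Sgk1* promoter a palindrome ran from -189 to -175, and a further half-site from -242 to -237 overlapped an E-box from -246 to -241. Of 32851 RefSeq mouse promoters of this length, 19% held a half-site, 0.00913% (3 promoters) the palindrome, 3.65% the forkhead motif, 37.4% a CCAAT box, 7.15% an E-box and 1.79% the cAMP response element. Promoters of *Nr3c1* were left out. For the other 7 members RefSeq listed 15 promoters, and a half-site lay in 3 of the 6 of *Sgk1*, in 1 of the 3 of *Tsc22d3* and in none of the *Hsd11b1*, *Klf9*, *Per1*, *Fkbp5* and *Dusp1* promoters. *Dusp1* held the cAMP response element from -143 to -136. These matches describe letters in short windows and not bound sites.

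*Hsd11b1* (ENSMUSG00000016194, chromosome 1, 193221634 to 193264075 on GRCm38, minus strand) was close to the floor in 2D cultures and readily detected in spheroids. In 2D cultures its level was 0.68 log2 CPM (13 reads), -0.62 (3 reads), -1.08 (2 reads) and -1.54 (1 read). In 3D spheroids it was 5.95 (482 reads), 5.97 (507 reads), 6.74 (822 reads) and 6.72 (847 reads). Every 3D sample thus lay far above every 2D sample, and 3 of the 4 2D samples lay at or under 3 reads. The mean level of the 4 spheroid samples was 6.34 ± 0.44 log2 CPM (SD) and that of the 4 dishes -0.64 ± 0.96, which makes a log2 (Fold Change) of 6.99 ± 0.44 (SE). Because this value depends on the prior count added to such low counts, the summed reads are a plainer measure, with 2658 in 3D and 19 in 2D, a ratio of 155 after scaling (95% exact counting interval 98.7 to 257). Of the 19 reads, 13 came from 2D replicate 1, and without it the ratio was 356 (163 to 971), so the spread between dishes is wider than the counting interval. Without any other 1 sample it was 118 to 168.

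The regions gave a second comparison, on other samples of the same line, though the list was chosen with earlier results of these data known. In this comparison *Hsd11b1* was higher in the internal than in the external region. In internal samples its level was 6.68, 7.38, 6.78 and 6.25 log2 CPM (477 to 1439 reads), and in external samples 5.55, 4.94 and 3.98 log2 CPM (58 to 283 reads). The groups did not overlap, and the external region, unlike the 2D dishes, held reads well above the floor in all 3 samples. The difference was 1.94 ± 0.28 on the log2 scale (SE, limma, adjusted p = 2.34e-05, n = 4 and 3), or 3.85-fold on this scale. The call was kept without each sample in turn (log2 (Fold Change) between 1.52 and 2.31), but was lost when the variance trend was left out (adjusted p = 0.0246). That setting also ended the other region calls named below, except those of *Hsp90aa1*, *Fbxo32*, *Gadd45b*, *Postn* and *Prox1*. Of all genes, 3.27% were called higher and 4.35% lower in the internal region at an adjusted p under 0.01 and a log2 (Fold Change) over 1, and 1 of the 8 members, *Hsd11b1*, was called higher and 0 lower. At an unadjusted p under 0.05 in limma, 3 members were higher and 1 lower, beside 16.1% and 17.5% of all genes, and voom called 1 higher and 0 lower.

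**Figure D1:**
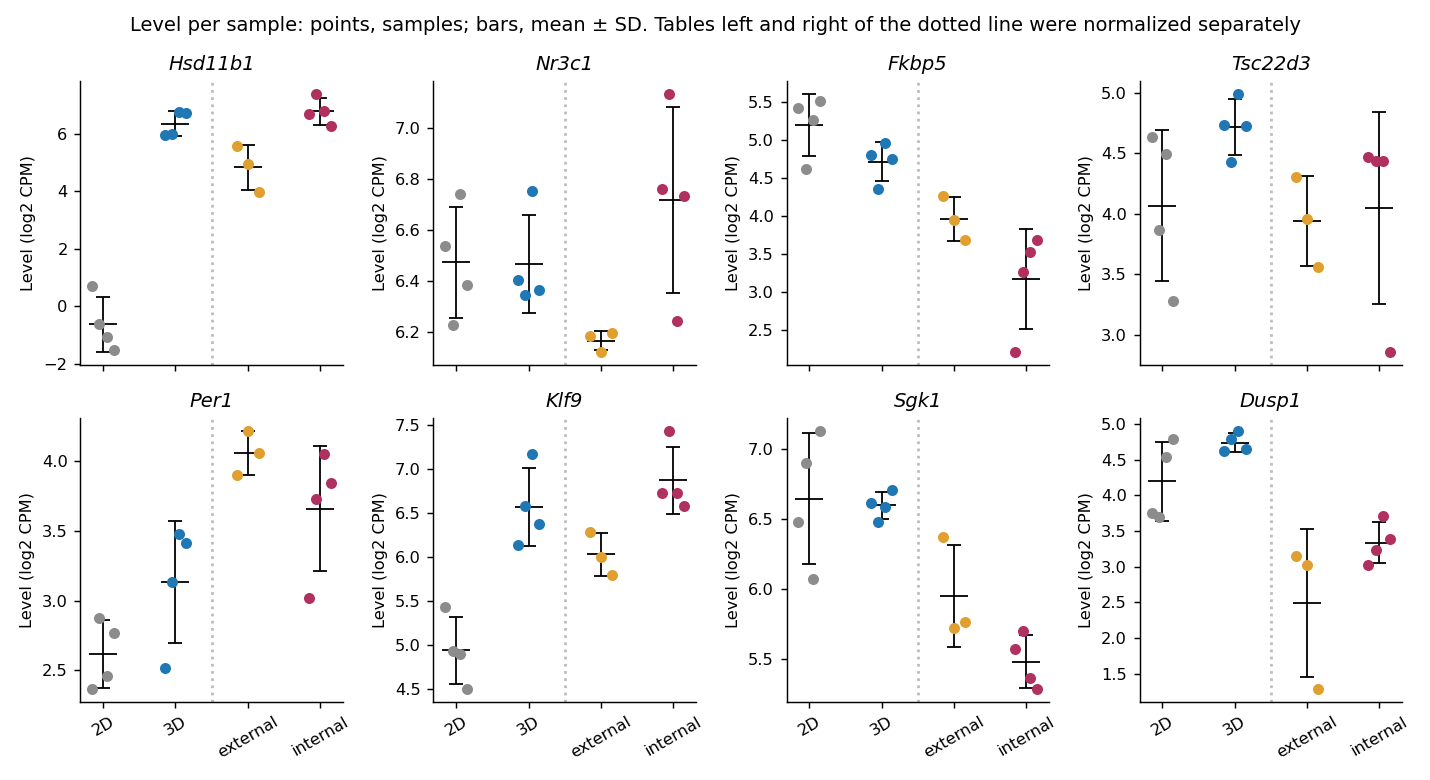
Level of each of the 8 genes in log2 CPM (vertical axes, each with its own range) by group (horizontal axes). Points are samples and bars are mean ± SD. *Hsd11b1* and *Klf9* lie higher in all 3D than in all 2D samples and higher in all internal than in all external samples, and the other genes do not show both.

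*Nr3c1*, the glucocorticoid receptor (ENSMUSG00000024431, chromosome 18, 39410545 to 39519421, minus strand), had similar levels in both cultures. They were 6.54, 6.23, 6.74 and 6.39 log2 CPM in 2D and 6.40, 6.35, 6.76 and 6.37 in 3D, a log2 (Fold Change) of -0.01 ± 0.15 (SE), and the ranges overlapped almost wholly. The receptor transcript was thus present in 2D cells, where *Hsd11b1* was near the floor. In the regions the levels of *Nr3c1* were 6.76, 7.13, 6.25 and 6.74 log2 CPM in internal samples and 6.19, 6.12 and 6.20 in external samples. The internal samples all lay above the external ones, by 0.55 ± 0.19 on the log2 scale (SE), which did not pass the test (limma, adjusted p = 0.0411). Of the 1890 stretches of 50 nt searched in *Nr3c1* transcript ends, 5 also occur in other transcripts.

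Among 29 other genes of steroid handling and receptor function, 24 were in each table. In 3D against 2D, 0 were called in either direction with limma, beside 2.92% of all genes called higher and 1.51% lower, 5 of the 24 were above 0, and their median log2 (Fold Change) was -0.23 beside -0.03 over all genes. At an unadjusted p under 0.05, 2 were higher and 8 lower, beside 16.7% and 17.0% of all genes, and voom called 0. *H6pd*, whose product supplies NADPH to the *Hsd11b1* enzyme, gave 0.73 ± 0.18 (SE, limma, adjusted p = 0.0189), with no overlap between groups, and was the only gene of the list that was higher in this way, beside 7 that were lower, where the groups did not overlap in 24.0% of all genes. Among those 7 were chaperones of the receptor, with -0.63 ± 0.15 for *Fkbp4* (adjusted p = 0.0153), the immunophilin that links the receptor to transport, and -0.62 ± 0.17 for *Hsp90aa1* (adjusted p = 0.026). In the regions 1 gene was called higher, *Ncoa2*, a coactivator of the receptor (1.10 ± 0.25, adjusted p = 0.00209), and 1 lower, *Hsp90aa1* (-1.41 ± 0.15, adjusted p = 3.30e-07), beside 3.27% and 4.35% of all genes. At an unadjusted p under 0.05 in limma, 3 were higher and 8 lower there, beside 16.1% and 17.5% of all genes, and voom called 1 higher and 2 lower. Without overlap 1 was higher and 8 lower, where the groups did not overlap in 29.0% of all genes. *Fkbp4* (-0.98 ± 0.15, adjusted p = 5.19e-05) and *Hsp90ab1* (-0.83 ± 0.16, adjusted p = 0.000383) passed the p threshold but not the fold threshold, which both crossed without external replicate 1 and *Fkbp4* also without internal replicate 1, 3 or 4. *H6pd* gave 0.60 ± 0.29 (adjusted p = 0.144). The median in the regions was -0.21 beside 0.04 over all genes. The call of *Ncoa2* was lost without external replicate 1 (adjusted p = 0.0129), internal replicate 1 (0.0127) or internal replicate 4 (0.0114). *Hsd11b2*, *Nr3c2*, the mineralocorticoid receptor, *Hsd11b1l*, *Abcb1a* and *Serpina6* were not listed in the tables, from which the authors had removed genes with low CPM, and were not analysed here.

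Of the 6 target genes, *Klf9*, a Krüppel-like transcription factor (ENSMUSG00000033863, chromosome 19, 23141226 to 23168134, plus strand), followed the groups in the same direction as *Hsd11b1*. Its level was 5.43, 4.93, 4.90 and 4.51 log2 CPM in 2D and 6.14, 6.59, 7.17 and 6.38 in 3D. The groups did not overlap, and their means were 4.94 ± 0.38 and 6.57 ± 0.44 (SD over 4 samples), so that the log2 (Fold Change) was 1.62 ± 0.25 (SE), or 3.08-fold. Leaving out any 1 sample gave 1.42 to 1.79. In the regions its level was 6.73, 7.43, 6.73 and 6.58 log2 CPM in internal samples and 6.29, 6.01 and 5.80 in external samples, again without overlap. The difference of 0.84 ± 0.20 on the log2 scale (SE) passed the p threshold but not the fold threshold (limma, adjusted p = 0.00366), and its adjusted p ranged from 0.00146 to 0.0697 over the alternative settings.

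*Fkbp5*, which encodes an immunophilin that holds the receptor inactive and whose induction is a common readout of receptor activity (ENSMUSG00000024222, chromosome 17, 28399094 to 28517527, minus strand), had negative differences in both comparisons. It was at 5.42, 4.62, 5.26 and 5.52 log2 CPM in 2D and at 4.80, 4.36, 4.96 and 4.76 in 3D, a log2 (Fold Change) of -0.49 ± 0.22 (SE) with overlapping groups. In internal samples it was at 2.22, 3.27, 3.53 and 3.69, and in external samples at 4.27, 3.96 and 3.69. The highest internal and the lowest external samples met at 3.69, and the difference of -0.79 ± 0.41 did not pass the test (limma, adjusted p = 0.174). Without internal replicate 1, the lowest sample, it was -0.48. In its transcript ends, 31 of 2788 stretches of 50 nt occur in other transcripts, and the authors counted uniquely mapped reads.

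*Tsc22d3*, which encodes the anti-inflammatory protein GILZ (ENSMUSG00000031431, chromosome X, 140539528 to 140600659, minus strand), ranged widely within groups. It was at 4.64, 3.86, 4.49 and 3.28 log2 CPM in 2D and at 4.74, 4.42, 4.99 and 4.73 in 3D, a log2 (Fold Change) of 0.65 ± 0.29 (SE) with overlapping groups. Internal samples were at 4.47, 4.44, 4.43 and 2.86 and external samples at 4.30, 3.96 and 3.56. A single internal sample, replicate 4, lay below all external samples, and the difference of 0.11 ± 0.39 did not pass the test (limma, adjusted p = 0.873). Without that sample it was 0.51 (adjusted p = 0.3).

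*Per1*, a clock gene that the receptor also induces (ENSMUSG00000020893, chromosome 11, 69095217 to 69109960, plus strand), was at 2.37, 2.88, 2.46 and 2.76 log2 CPM in 2D and at 2.52, 3.13, 3.48 and 3.41 in 3D, a log2 (Fold Change) of 0.52 ± 0.28 (SE). The groups overlapped through 3D replicate 1. In the regions it was at 3.02, 3.73, 4.05 and 3.84 in internal samples and at 3.90, 4.22 and 4.05 in external samples, a difference of -0.40 ± 0.35 that did not pass the test (limma, adjusted p = 0.454). The value was thus positive in one comparison and negative in the other, with overlap in both.

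*Sgk1*, a kinase that regulates ion transport (ENSMUSG00000019970, chromosome 10, 21882184 to 21999903, plus strand), was at 6.48, 6.90, 6.07 and 7.13 log2 CPM in 2D and at 6.61, 6.48, 6.58 and 6.71 in 3D. The 3D samples all lay inside the range of the 2D samples, with a log2 (Fold Change) of -0.05 ± 0.21 (SE). Internal samples were at 5.58, 5.70, 5.37 and 5.29 and external samples at 6.37, 5.72 and 5.76. All internal samples lay below all external ones, in the direction opposite to *Hsd11b1*, by an amount that did not pass the test (-0.47 ± 0.21, limma, adjusted p = 0.129). In its transcript ends, 7 of 1953 stretches occur in other transcripts.

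*Dusp1*, a phosphatase that switches off MAP kinases (ENSMUSG00000024190, chromosome 17, 26505590 to 26562128, minus strand), was at 3.76, 3.69, 4.54 and 4.80 log2 CPM in 2D and at 4.62, 4.80, 4.91 and 4.65 in 3D, a log2 (Fold Change) of 0.55 ± 0.26 (SE) with overlapping groups. The 2D samples were spread, and the 3D samples lay close together near the top of the 2D range. In internal samples it was at 3.02, 3.24, 3.71 and 3.39 and in external samples at 3.15, 3.02 and 1.29. The low external sample, replicate 3, held 8 reads, and the difference of 0.85 ± 0.49 did not pass the test (limma, adjusted p = 0.23). Without that sample it was 0.25. Annotated genes on the same strand overlap *Hsd11b1* (1 gene), *Klf9* (1), *Fkbp5* (2) and *Dusp1* (2).

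**Figure D2:**
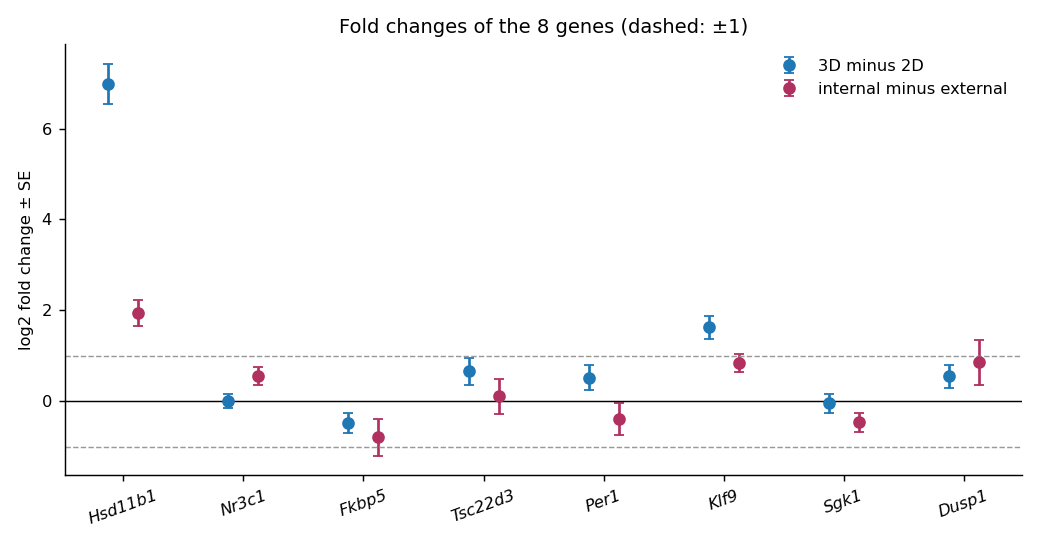
Log2 (Fold Change) ± SE (vertical axis) of each of the 8 genes in 3D minus 2D (blue) and internal minus external (red), with dashed lines at the fold threshold. *Hsd11b1* is at 6.99 and 1.94 and *Klf9* at 1.62 and 0.84, and *Fkbp5* is below 0 in both comparisons.

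Over the 8 genes in 3D against 2D, 2 passed both thresholds upwards, *Hsd11b1* and *Klf9*, and 0 downwards, where 2.92% of all genes were called higher and 1.51% lower. Without 3D replicate 4 *Klf9* did not pass. The same 2 had groups that did not overlap, as did 24.0% of all genes. Nothing is read from these counts, since this contrast chose the list. In internal against external, 3 members lay higher without overlap (*Hsd11b1*, *Nr3c1* and *Klf9*) and 1 lower (*Sgk1*), where 29.0% of all genes did not overlap in either direction. The 6 targets had a median log2 (Fold Change) of 0.53 in 3D against 2D, with 4 above 0, and of -0.14 in internal against external, with 3 above 0, beside -0.03 and 0.04 over all genes. The direction was thus mixed among the targets, and *Klf9* was the target with a positive difference and no overlap in both comparisons.

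Whether the level of *Hsd11b1* goes with that of its targets from sample to sample within a group was not tested, since each group holds 4 samples or fewer. In the regions *Hsd11b1* and *Klf9* shared their highest sample, internal replicate 2 (7.38 and 7.43 log2 CPM), and their lowest, external replicate 3 (3.98 and 5.80). In the cultures they shared the highest sample, 3D replicate 3 (6.74 and 7.17), and the lowest, 2D replicate 4 (-1.54 and 4.51). For *Hsd11b1* these culture extremes were narrow. It was at 6.72 in 3D replicate 4, where *Klf9* was at 6.38, and it held 1 read in 2D replicate 4 and 2 reads in 2D replicate 3. The shared extreme samples were extremes for other members too. In the cultures *Nr3c1* (6.76), *Tsc22d3* (4.99), *Per1* (3.48) and *Dusp1* (4.91) were also highest in 3D replicate 3, and *Tsc22d3* was also lowest in 2D replicate 4 (3.28). In the regions *Nr3c1* was also highest in internal replicate 2 (7.13), and *Dusp1* was also lowest in external replicate 3 (1.29). *Fkbp5* had its highest region level in external replicate 1 (4.27) and its lowest in internal replicate 1 (2.22).

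**Figure D3:**
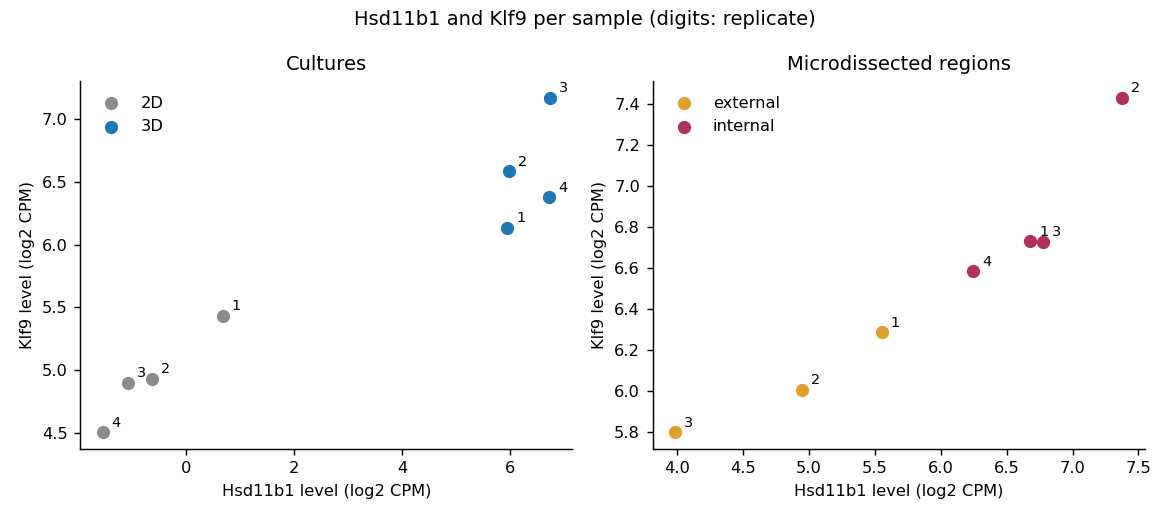
*Hsd11b1* level (horizontal axis) and *Klf9* level (vertical axis) in log2 CPM for each sample, with cultures at left and microdissected regions at right, and digits for replicates. The highest samples are 3D replicate 3 (6.74 and 7.17) and internal replicate 2 (7.38 and 7.43), in which *Nr3c1* was highest too.

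A wider list of 54 other genes that glucocorticoids induce in various tissues had 36 members in the culture table and 33 in the region table. In 3D against 2D, 4 of 36 (11.1%) were called higher and 0 lower, beside the 2.92% and 1.51% of all genes, and the median log2 (Fold Change) was 0.42 with 27 above 0. At an unadjusted p under 0.05 in limma, 14 were higher and 1 lower, beside 16.7% and 17.0% of all genes, and voom called 3 higher and 0 lower. The called genes were *Txnip*, the inhibitor of thioredoxin (4.03 ± 0.67, limma, adjusted p = 0.00355), *Cebpd*, a C/EBP transcription factor (2.79 ± 0.40, 0.00193), *Fbxo32*, the ubiquitin ligase atrogin (2.55 ± 0.28, 0.000705), and *Tgm2*, a transglutaminase (1.93 ± 0.32, 0.00377). Several of these have other known inducers, such as glucose for *Txnip* and FoxO factors for *Fbxo32*. Only *Fbxo32* was called in every fit that left out 1 sample. Without 3D replicate 3 or without 3D replicate 4 the count was 1, and *Cebpd* and *Tgm2* then missed the threshold (adjusted p of 0.0101 and 0.0172 without replicate 3, 0.0103 and 0.0187 without replicate 4). *Txnip* also missed the threshold without 2D replicate 4 (0.0128) or 3D replicate 1 (0.0137). Some targets often used as readouts, named after their values were seen, were not called. The values were -0.05 ± 0.20 for *Mt1* and 0.15 ± 0.17 for *Mt2*, both metallothioneins. They were -0.49 ± 0.44 for *Errfi1*, an inhibitor of EGF receptor signalling, and 0.12 ± 0.24 for *Glul*, glutamine synthetase. These genes do not stand for the list. Of its 36 members, 12 were higher without overlap and 0 lower, where the groups did not overlap in 24.0% of all genes. *Gadd45b* and *Bcl6* were higher in this way but not called. *Gadd45b* was at 3.44 to 4.85 log2 CPM in 2D and 5.10 to 5.26 in 3D, and *Bcl6* at 4.55 to 5.13 and 5.28 to 5.81.

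*Fbxo32* was at 0.86, 1.28, 1.23 and 0.67 log2 CPM (13 to 18 reads) in 2D and at 3.60, 3.15, 3.85 and 3.63 (70 to 109 reads) in 3D. In internal samples it was at 5.51, 5.45, 5.23 and 5.72 and in external samples at 2.48, 3.21 and 3.01. Neither pair of groups overlapped. Of the 33 genes in the region table, 6 (18.2%) were called higher and 0 lower, beside 3.27% and 4.35% of all genes, and the median was 0.46 with 25 above 0. At an unadjusted p under 0.05 in limma, 14 were again higher and 1 lower, beside 16.1% and 17.5% of all genes, and voom called 5 higher and 0 lower. These were *Fbxo32* (2.58 ± 0.29, limma, adjusted p = 8.73e-07), *Txnip* (2.54 ± 0.52, 0.000826), *Ddit4*, an inhibitor of mTORC1 that stress and hypoxia also induce (1.41 ± 0.23, 7.80e-05), *Gadd45b*, a stress response gene (1.41 ± 0.19, 8.52e-06), *Rgs2*, a regulator of G protein signalling (1.30 ± 0.17, 4.23e-06), and *Bcl6*, a transcriptional repressor (1.19 ± 0.19, 5.39e-05). All 6 were called without any 1 sample, and 2 were called without the variance trend. The *Txnip* difference was 1.68 without external replicate 3 and 3.37 without external replicate 1, and it missed the threshold with a robust variance prior (adjusted p = 0.0242) and with voom (0.0196). *Txnip* and *Fbxo32* were the members of this list called in both comparisons. *Cebpd* gave 0.10 ± 0.24 in the regions (adjusted p = 0.805), and *Mt2* gave -0.62 ± 0.19 (adjusted p = 0.0252).

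Of 24 inflammatory genes that glucocorticoids repress, 12 were in the culture table, where 1 was called higher and 0 lower, by limma and by voom, and the median log2 (Fold Change) was 0.78 (4 higher and 0 lower at an unadjusted p under 0.05). Over all genes the called shares were 2.92% higher and 1.51% lower, and those at an unadjusted p under 0.05 were 16.7% and 17.0%. The called gene was *Mmp13*, a collagenase, with 4, 23, 19 and 27 reads in 3D and 0, 1, 0 and 0 in 2D (limma, adjusted p = 0.00783). Its call was lost without 2D replicate 1, 3 or 4 or 3D replicate 2, 3 or 4 (adjusted p up to 0.034), and without 2D replicate 2 the count of genes called higher was 3. In the regions 7 of them were present, with 0 called higher and 2 lower, by limma and by voom, and a median of -0.88 (1 higher and 2 lower at an unadjusted p under 0.05), beside 3.27% of all genes called higher and 4.35% lower, and 16.1% and 17.5% at an unadjusted p under 0.05. The lower genes were *Il11*, a cytokine (-2.91 ± 0.38, limma, adjusted p = 4.73e-06), and *Ptgs2*, the inducible cyclooxygenase (-2.42 ± 0.65, adjusted p = 0.0084). The call of *Ptgs2* was lost without any of the 3 external samples or without internal replicate 1 or 4 (adjusted p up to 0.0586). The repressed genes thus had a positive median in spheroids against 2D cultures and a negative one in internal against external regions.

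Immediate early genes and clock genes were also counted, because *Dusp1*, *Sgk1* and *Per1* answer to serum, stress and time of day as well. Their counts stand beside 2.92% of all genes called higher and 1.51% lower in 3D against 2D, and 3.27% and 4.35% in internal against external. The shares at an unadjusted p under 0.05 were 16.7% and 17.0% in 3D against 2D, and 16.1% and 17.5% in internal against external. Of 20 immediate early genes, 1 was called higher in 3D, the nuclear receptor *Nr4a2* (1.17 ± 0.17, limma, adjusted p = 0.00223), and 1 lower, the AP-1 subunit *Fosl1* (-1.05 ± 0.21, adjusted p = 0.00855), with a median of 0.78. At an unadjusted p under 0.05 in limma, 9 were higher and 2 lower, voom called 3 higher and 1 lower, and leaving out 1 sample gave 0 to 3 higher. In the regions *Fos* was called higher (3.11 ± 0.73, adjusted p = 0.00322) and *Fosl1* lower (-3.30 ± 0.40, adjusted p = 1.94e-06), with a median of -0.25, and voom called 0 higher and 1 lower (for *Fos*, adjusted p = 0.0692). There 4 immediate early genes were higher and 4 lower at an unadjusted p under 0.05 in limma. In the cultures 0 of 14 clock genes were called in either direction (median 0.12), and in the regions 2 of 13 were called higher, the nuclear receptor *Rora* (1.12 ± 0.24, adjusted p = 0.00165) and the output gene *Dbp* (1.03 ± 0.22, adjusted p = 0.00114), with a median of 0.39. At an unadjusted p under 0.05 in limma, 6 clock genes were higher and 0 lower in the regions, where voom called 2 higher and 0 lower. In 3D against 2D 4 clock genes were higher and 1 lower at that threshold, and voom called 0. Of these, *Rora* gave 1.84 ± 0.47 without overlap in 3D against 2D (adjusted p = 0.0224) and was called without 2D replicate 2 (adjusted p = 0.00641), and *Dbp* gave 1.28 ± 0.33 (adjusted p = 0.022) and was called without 3D replicate 2 (adjusted p = 0.0068). Several of these calls were near the thresholds and were lost when one or another sample was left out, mostly with differences of about the same size. *Nr4a2* was lost without 3D replicate 3 or 4 (1.11 in both fits), *Fosl1* in 3D against 2D without 2D replicate 1, 3 or 4 or 3D replicate 1, 3 or 4 (between -1.08 and -0.83), *Fos* without external replicate 2 (2.22) or internal replicate 1, 2 or 4 (2.90 to 3.08), *Rora* in fits without external replicate 2 or 3, and *Dbp* without external replicate 1 or internal replicate 3. Leaving out internal replicate 1 also took *Rora* under the fold threshold (0.96), as did leaving out internal replicate 2 (0.96). The part of serum, stress or time of day in the levels of the members was not tested.

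**Figure D4:**
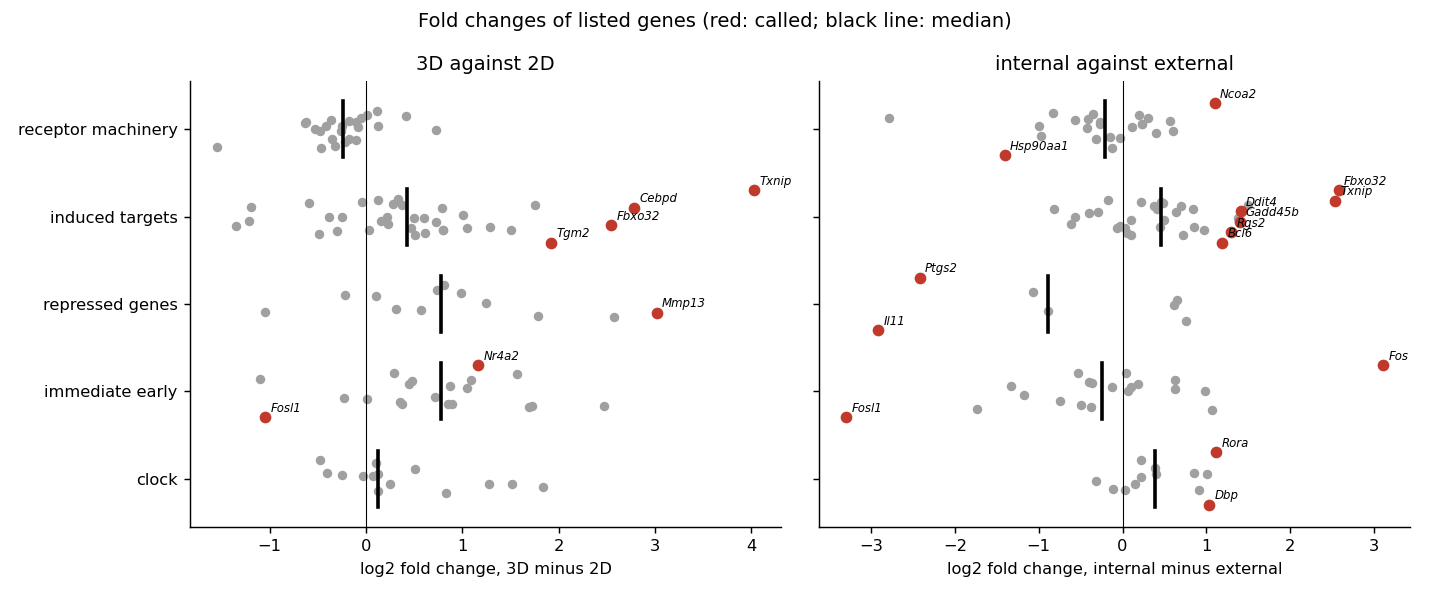
Log2 (Fold Change) (horizontal axes) of the listed genes in 3D minus 2D (left) and internal minus external (right), 1 point per gene, red where called, with a black line at the median of each list. The induced targets have medians of 0.42 and 0.46, and the repressed genes have medians of 0.78 and -0.88.

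Markers of other cell types were read beside *Hsd11b1*, which is also expressed by fibroblasts and adipocytes. Of 8 fibroblast markers, 7 were in the culture table and 4 were called higher in 3D (*Dcn*, *Postn*, *Thy1* and *Pdgfrb*) and 0 lower, beside 2.92% and 1.51% of all genes, and their summed level was 657 to 916 CPM in 3D and 96.3 to 247 CPM in 2D. The calls of *Thy1* and *Pdgfrb* were each lost in 7 of 8 fits that left out 1 sample, that of *Dcn* in 4 and that of *Postn* in 0. In the regions 6 were present, with *Postn* called higher and *Col1a1* lower, beside 3.27% and 4.35% of all genes, and the summed level was 769 to 995 CPM in internal and 296 to 663 CPM in external samples. Of 10 lens markers 6 were in each table, with sums of 1485 to 1866 CPM in 3D and 875 to 1246 CPM in 2D, and of 1366 to 1711 CPM in internal and 931 to 1008 CPM in external samples, where the transcription factors *Prox1* and *Maf* were called higher. The lens markers *Foxe3*, *Cryaa*, *Cdh1* and *Sox2* were not among the genes listed. Only 1 of 5 adipocyte markers, *Lpl*, was listed in either table, 0 of 4 endothelial markers were listed, and of 5 macrophage markers 1 was listed in the culture table, at up to 1.64 CPM, and 2 in the region table, at up to 10.01 CPM in sum. The summed levels of both lists were thus higher in the groups where *Hsd11b1* was higher. The single genes did not all follow. In 3D against 2D 6 of 7 fibroblast markers were above 0, and the lowest was at -1.47 on the log2 scale. Of the 7, 4 were higher and 1 was lower without overlap, where the groups did not overlap in 24.0% of all genes. In the regions 3 of 6 fibroblast markers were above 0, their median was 0.10 on the log2 scale beside 0.04 over all genes, and *Postn* alone was at 514 ± 97.5 CPM in internal and 80.5 ± 35.1 CPM in external samples (SD, n = 4 and 3). Of the lens markers, 0 of 6 were called in 3D against 2D with limma or voom, and 5 were higher at an unadjusted p under 0.05, beside 16.7% of all genes. *Prox1* held 1 read in 2D replicate 3 and 327 to 355 reads in the other dishes, and without that dish it was called higher in 3D (1.15, adjusted p = 0.00382). The part of these markers in the result was not tested.

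The genes whose pattern over samples was most like that of *Hsd11b1* were found by the root mean square (RMS) difference between their levels and those of *Hsd11b1*, each centred on its own mean. Over the 8 culture samples and 10233 other genes that averaged 2 log2 CPM or more in either group, these were *Apod*, a lipocalin (RMS difference 0.90 on the log2 scale), *Serpina3n*, an acute phase serine protease inhibitor (1.12), and *C4b*, a complement component (1.15). This order is a description of the values that chose *Hsd11b1*. All 3 reached the minimum level only through 3D. In 2D samples *Apod* had 3 to 45 reads, *Serpina3n* 0 to 2 and *C4b* 0 to 3, so these differences depend on the prior count. *Klf9* ranked 275th with 2.72. Over the 7 region samples and 10404 genes they were *St6gal1*, a sialyltransferase (0.10), *Mylip*, a ubiquitin ligase (0.25), and *Hexim2* (0.30), while *Klf9* ranked 282nd (0.63), *Dusp1* 484th, *Nr3c1* 1481st and *Fkbp5* 9071st. *St6gal1* was at 3.26, 3.97, 3.34 and 2.68 log2 CPM in internal and at 2.03, 1.65 and 0.71 in external samples (5 to 23 reads), without overlap, and reached the minimum level only through the internal region. The difference was 1.85 ± 0.53 (SE), a description of the values that picked it, and in 3D against 2D it was 0.26 ± 0.46. The genes picked in the cultures gave 1.84 ± 0.25 (*Apod*), 2.45 ± 0.25 (*Serpina3n*) and 0.89 ± 0.28 (*C4b*) in internal against external. These are given as values only, because the genes were picked on the contrast that chose *Hsd11b1*.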

How the data were processed

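Reads from 3′ end libraries (QuantSeq) of 15 samples were trimmed, aligned to GRCm38.p6 with STAR 2.7.8a and counted per gene as uniquely mapped reads with featureCounts 1.6.0 by the authors, who removed genes with low CPM. The annotation release is not given in the sources used here. The authors deposited log2 CPM per sample, normalized separately for cultures and regions, so comparisons stay within a table. The authors' columns of fold changes and p-values were not used. Whole reads were recovered from the spacing of the log2 values for 100.0% of values (within 0.02 reads, with a mean prior count of 2.000 reads).

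Samples were grouped by their labels. Differences were tested with limma 3.58.1 in R 4.3.3 on the log2 values (moderated variances that follow the mean level, two-sided p-values adjusted by Benjamini-Hochberg across the whole table). A gene was called when its adjusted p was under 0.01 and its log2 fold change over 1 in size. Values above 0 are higher in 3D or in the internal region. The code was tested on simulated data. Alternatives were other prior counts (0.5 and 5 reads), scalings, a minimum mean of 1 log2 CPM, thresholds and variance models, voom on the recovered reads, the replicate block and each sample left out.

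The members and lists were chosen with earlier results of these data known. Named genes are the members, up to 3 called genes per list and direction with the largest differences, and the 3 genes most like *Hsd11b1* per table. *H6pd*, *Fkbp4*, *Hsp90ab1*, *Tgm2*, *Gadd45b*, *Rgs2*, *Bcl6*, *Pdgfrb*, *Mt1*, *Mt2*, *Errfi1* and *Glul* were named after their values were seen. Positions are from GENCODE vM21 and promoters from RefSeq. Transcript ends (the last 300 nt) were searched for shared stretches of 50 nt. Other computations used Python 3.11.15.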

Additional observations from a re-analysis of the deposited data

Results flagged for a closer look

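Of 24 checks of a member within a group of 4 samples, 2 found a sample far from the others, and chance alone gives about 1 in 20. *Nr3c1* was at 6.76 log2 CPM in 3D replicate 3, above the 6.35 to 6.40 of the other 3D samples, and without that sample its 3D against 2D difference was -0.10. *Tsc22d3* was at 2.86 log2 CPM in internal replicate 4, below the 4.43 to 4.47 of the other internal samples.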

How the results depend on the processing

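No gene named as called changed direction, in the comparison in which it was called, under the alternatives run. For 3D against 2D, an adjusted p under 0.05 raised the genes called higher from 341 to 644, those called lower from 176 to 334 and the wider induced targets called higher from 4 to 7, and no fold threshold gave 315 lower. For internal against external, no fold threshold gave 588 higher, 890 lower and 2 members higher (*Hsd11b1* and *Klf9*), and no variance trend gave 117 higher, 207 lower, 0 members higher and 2 induced targets higher. Leaving out 1 sample gave 112 to 483 genes higher and 49 to 287 lower in 3D against 2D (lowest without 3D replicate 3), with 1 to 2 members and 1 to 6 induced targets higher and 0 of each lower, and 281 to 402 higher and 352 to 489 lower in internal against external, with 1 member and 6 induced targets higher and 0 of each lower in every fit. The count of 1 member, with *Klf9* lost, was without 3D replicate 4. The sign of the difference changed for members near 0, namely *Nr3c1* (6 of 17 settings) and *Sgk1* (2 of 17) in 3D against 2D and *Tsc22d3* (5 of 18) in the regions. Scaling by read totals moved the median of all genes in the regions from 0.04 to 0.15, and *Hsd11b1* to 2.05 and *Klf9* to 0.95. The fitted *Hsd11b1* difference between cultures was 6.30 with a prior count of 5 reads and 7.60 with voom. The causes were not tested.

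Same-numbered samples did not deviate together throughout (r of deviations between 0.005 and 0.503 in cultures and between -0.065 and -0.044 in regions). Different-numbered samples gave -0.330 to 0.188 in cultures and -0.073 to 0.064 in regions. Same-numbered culture samples thus all had r above 0, highest for replicate 2 (0.503). The sources used here do not say whether numbers pair samples. They were not taken as pairs, and the replicate block was run as an alternative. With the replicate block 389 genes were higher and 213 lower in 3D, and 256 higher and 399 lower in the internal region, with the same counts of members and induced targets as without it. There was no external replicate 4, so in the regions the block took internal replicate 4 out of the contrast. The region differences were then those of the fit without that sample, such as 2.93 for *Fos*. Among the genes named, the block ended the region calls of *Ncoa2* (adjusted p = 0.0256), *Fos* (0.0194) and *Ptgs2* (0.0358) and took *Fkbp4* past the fold threshold (-1.06), and in 3D against 2D it added *Rora* (0.00711) and *Maf* (0.00334). Levels near 3 reads, such as *Hsd11b1* in 2D, are limited by depth.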
